A study of Mus musculus with 9 samples.

Results

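The genes described here are 9 endothelial genes of junctions, barrier transport and effector functions: Cdh5, Cldn5, Pecam1, Slco1a4, Nos3, Vwf, Cd93, Hspa12b and Col15a1. They were taken by symbol from the deposited count tables, which held 237 named genes in all. All 9 were in the table of the overexpression (OE) libraries, and 7 of them, without Pecam1 and Slco1a4, were among the 194 genes of the RNA immunoprecipitation (RIP) table. The members were chosen by symbol with their raw counts in the insoluble, OE and RIP libraries in view, and the criterion by which the authors selected the rows of the tables is not given in the sources used here. The counts and fold changes of the 9 genes are therefore a description, and no p-value of the re-analysis is given for them.

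The tissue of every library was medial prefrontal cortex (mPFC), the strain was C57BL/6, and there were 3 libraries in each of 3 groups. The first group was the insoluble fraction of mice aged 22 months, the second was overexpression of YTHDF1 and YTHDF2 together, and the third was RNA recovered by RIP of YTHDF2, a cytoplasmic protein that binds m6A-modified RNA. The age of the animals behind the OE and RIP libraries, the vector and cell type of the overexpression, the fraction sequenced in OE and the antibody of the RIP are not given in the sources used here, and no input or control immunoprecipitation was analysed. Nothing states that replicates came from separate animals, so their spread may be technical.

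Endothelial cells line blood vessels. In the brain they form the blood-brain barrier, in which adherens junctions built on VE-cadherin and tight junctions built on claudins seal neighbouring cells, while membrane transporters move selected molecules across. The same cells set vessel tone through nitric oxide, store von Willebrand factor for platelet adhesion and rest on a basement membrane of collagens, laminins and proteoglycans.

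Counts over the listed genes summed to 66812 to 99369 per library in the OE table and to 61610 to 83620 in the RIP table. These sums are not sequencing depths, which are unknown here, so scaling rested on the listed genes. None of the 13 neuronal, 10 astrocyte, 10 oligodendrocyte and 12 microglial markers searched for was among the listed genes, so the tissue label could not be checked against them. How the listed genes were selected is not given, so this is not read as absence from the tissue. The RIP replicates varied most: the chi-square statistic divided by its degrees of freedom was 5.96 to 12.8 between pairs of RIP libraries and 1.15 to 1.31 between pairs of insoluble libraries in the same table. That statistic sums over genes, and in some rows 1 RIP library stood far apart. Examples are Tie1 (65, 693 and 56 counts) and Snhg11 (47, 479 and 428 counts). How much of the ratio such rows made up was not tested.

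m6A is placed by the writer complex at a consensus whose commonest form is GGACU, read as GGACT in the DNA alphabet, and it is concentrated near stop codons. Because the RIP targeted a reader of this mark, the longest protein-coding transcript of each gene (GENCODE M21, GRCm38) was searched on the sense strand for GGACT and for the GGAC inside it. Every one of the 9 transcripts held GGACT, as did 87.7% of the longest transcripts of 21866 protein-coding genes and 90.4% of the 167 protein-coding genes in the OE table. The median over the 9 genes was 1.47 GGACT per kilobase, beside 1.23 over those 167 listed genes and 1.01 over all protein-coding genes. Hspa12b had the highest value, 2.05 per kilobase (7 words), and Pecam1 the lowest, 0.291 per kilobase (1 word). Nos3 held 7 words, of which 6 were in its coding sequence, and Cd93 held 10, of which 7 were in its 3′ UTR. Vwf held 13 words, more than any of the other 8 genes, on a transcript of 8834 bases. A word match is not a mapped m6A site.

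For the 5 genes on which the comparisons turned, the GGACT nearest the stop codon is shown in a window of 25 bases that lies in 1 exon, with the word in capitals and the sequence in the sense direction.
Cd93: tgacttgactGGACTctcagcaaaa
Col15a1: aagacagaaaGGACTcagatccaag
Hspa12b: ctgcaacagaGGACTaaacactgac
Nos3: ggacattttcGGACTcacattgcgc
Cdh5: cctggcgcctGGACTgcacggaggg
The Cd93 window (chr2:148441138-148441162, minus strand) is in the 3′ UTR in exon 2 of 2, 95 bases after the stop codon. The windows of Col15a1 (chr4:47312456-47312480, plus strand, exon 40 of 40) and Hspa12b (chr2:131145434-131145458, plus strand, exon 13 of 13) are also in the 3′ UTR, 180 and 230 bases after the stop codon. The Nos3 window (chr5:24383838-24383862, plus strand, exon 26 of 26) is coding sequence 127 bases before the stop codon. The Cdh5 window (chr8:104142722-104142746, plus strand, exon 12 of 12) is coding sequence 262 bases before it. These distances run between the first base of the stop codon and the middle base of the word.

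The genes differed most in level. Normalised counts, which are raw counts divided by library size scaled with edgeR's TMM method, were divided by the length of the longest transcript to compare genes. Nos3, the endothelial nitric oxide synthase, stood highest in the insoluble fraction at 424.2 ± 14.3 normalised counts per kilobase (SD, n = 3) and ranked 15 of the 167 protein-coding genes in the table. Cd93, a transmembrane receptor of endothelial and myeloid cells, followed at 101.8 ± 4.24. Cdh5 (VE-cadherin) had 25.4 ± 3.99 and Vwf (von Willebrand factor) 8.02 ± 1.28. The median over the 167 genes was 32.0, so Nos3 and Cd93 were above it and the other 7 genes below it.

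**Figure D1:**
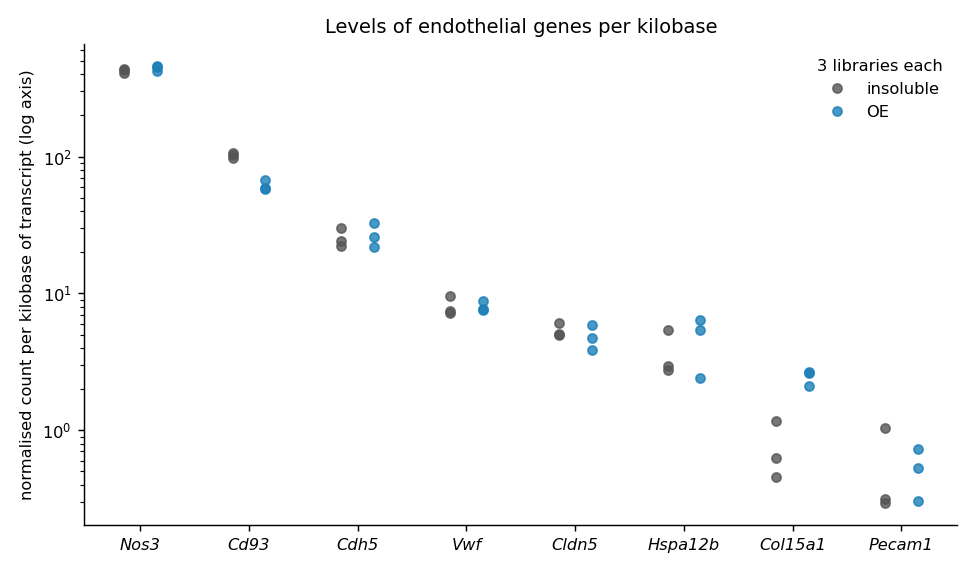
Normalised counts per kilobase of the longest transcript (log axis) for 8 genes, with 1 point per library and 3 libraries each of the insoluble fraction and OE. Nos3 lies near 424 in the insoluble fraction and Pecam1 near 0.547, and Slco1a4 is not drawn because its insoluble counts were 0.

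Lower in the order, neighbouring genes were not always separated. Cldn5, the main claudin of brain endothelium, ranged from 5.0 to 6.08 normalised counts per kilobase in the insoluble fraction and overlapped Hspa12b, a member of the HSP70 family found in endothelium, which ranged from 2.78 to 5.36. Col15a1, the chain of a basement membrane collagen, ranged from 0.459 to 1.17 and overlapped Pecam1, an adhesion molecule at endothelial contacts, which ranged from 0.294 to 1.03. In OE the order of the means was the same, with Cldn5 (4.84) and Hspa12b (4.75) nearly equal, and Hspa12b overlapped Col15a1.

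The Nos3 level carries a limit. Nos3 (ENSMUSG00000028978, chr5:24364810-24384474, plus strand) overlaps in its exons 2 genes on the minus strand, Gm15587 by 1040 bases and Atg9b by 294 bases, and 79.7% of the words of 50 bases in its longest transcript were found in no other gene's transcript. Whether the counting used strand is not given in the sources used here, so reads of Nos3 and of these antisense partners cannot be told apart. For Slco1a4, 97.3% of words were unique, the rest being shared with its transporter relatives, and for the other 7 genes at least 99.3% were.

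Among the junction genes, Cdh5 (ENSMUSG00000031871) had 88, 111 and 81 counts in insoluble libraries 1 to 3 and 122, 142 and 83 counts in the OE libraries. The groups overlapped both before and after scaling. Normalised counts were 101.5 ± 16.0 in the insoluble fraction and 106.4 ± 22.0 in OE (SD, n = 3 each), and the log2 fold change, OE over insoluble, was 0.08 ± 0.14 (SE). In this bulk RNA, as for every gene below, fewer cells of a type and less RNA per cell cannot be told apart. The reference is an insoluble fraction of mice aged 22 months, and the fraction and age of OE are not given. Overexpression, fraction and age therefore cannot be told apart in the OE comparison. The same holds for pull-down, fraction and age in RIP, which had no input.

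Cldn5 (ENSMUSG00000041378, a gene of 1 exon at chr16:18776847-18778262) had 7, 8 and 6 counts in the insoluble libraries and 8, 6 and 8 in OE. Pecam1 (ENSMUSG00000020717) had 1, 1 and 3 counts and 3, 2 and 1 counts. Slco1a4 (ENSMUSG00000030237), which encodes an uptake transporter for organic anions at the blood-brain barrier, had 0 counts in each insoluble library and 0, 1 and 0 in OE. These low counts did not pass the filter and were not tested. Pecam1 and Slco1a4 were at or under 3 counts, the limit that a count of 0 allows by counting error alone, in each of the 6 libraries, so no fold is given for them.

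Of the effector genes, Nos3 had 1740, 1571 and 1525 counts in the insoluble libraries and 2072, 2031 and 1818 in OE. The raw counts were higher in each OE library, but the groups overlapped after scaling, and the log2 fold change was 0.06 ± 0.04 (SE). Vwf (ENSMUSG00000001930) had 83, 59 and 55 counts in the insoluble libraries and 79, 74 and 74 in OE, with a log2 fold change of -0.02 ± 0.16 (SE). Insoluble replicate 1 was the highest Vwf library, insoluble replicates 2 and 3 were the lowest by raw counts, and the OE libraries lay between them. Hspa12b (ENSMUSG00000074793) had 10, 17 and 8 counts in the insoluble libraries and 22, 9 and 21 in OE, with a log2 fold change of 0.34 ± 0.39 (SE) and overlapping groups.

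Cd93 (ENSMUSG00000027435, chr2:148436640-148443563, minus strand) was lower in OE. It had 675, 656 and 548 counts in the insoluble libraries and 460, 426 and 433 in OE, so every OE library was below every insoluble library although the OE libraries had the larger totals. Normalised counts were 679.5 ± 28.3 in the insoluble fraction and 409.7 ± 37.0 in OE (SD, n = 3 each), a ratio of 0.603 and a log2 fold change of -0.74 ± 0.07 (SE). It ranked 7th from the lowest of the 195 genes tested.

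Col15a1 (ENSMUSG00000028339, chr4:47208161-47313167, plus strand) moved the other way at low counts. It had 6, 3 and 2 counts in the insoluble libraries and 13, 15 and 13 in OE, again without overlap, and a log2 fold change of 1.64 ± 0.60 (SE). This was the highest of the 195 values. Its exons share 14 bases with Gm12426 on the minus strand, and it passed the filter through its OE counts, since its insoluble counts were under 10. Its call was lost in DESeq2 (log2 fold change 1.67), and in the fits without insoluble replicate 2 (1.53) or 3 (1.42) or without OE replicate 2 (1.58) or 3 (1.59).

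Of the 9 genes, 6 passed the filter in the OE comparison. With edgeR's quasi-likelihood test and a threshold of 0.05 on the Benjamini-Hochberg adjusted p-value, 1 of the 6 was called higher (Col15a1), 1 lower (Cd93) and 4 neither, where 39.5% of all 195 tested genes were called, 21% higher and 18.5% lower. The median log2 fold change of the 6 genes was 0.07, beside -0.01 over all tested genes. Normalised counts did not overlap between groups in 2 of the 6 genes, 1 in each direction, beside 49.2% of all tested genes, 26.2% higher and 23.1% lower. Nothing is read from these counts, since the genes were chosen with these values known.

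**Figure D2:**
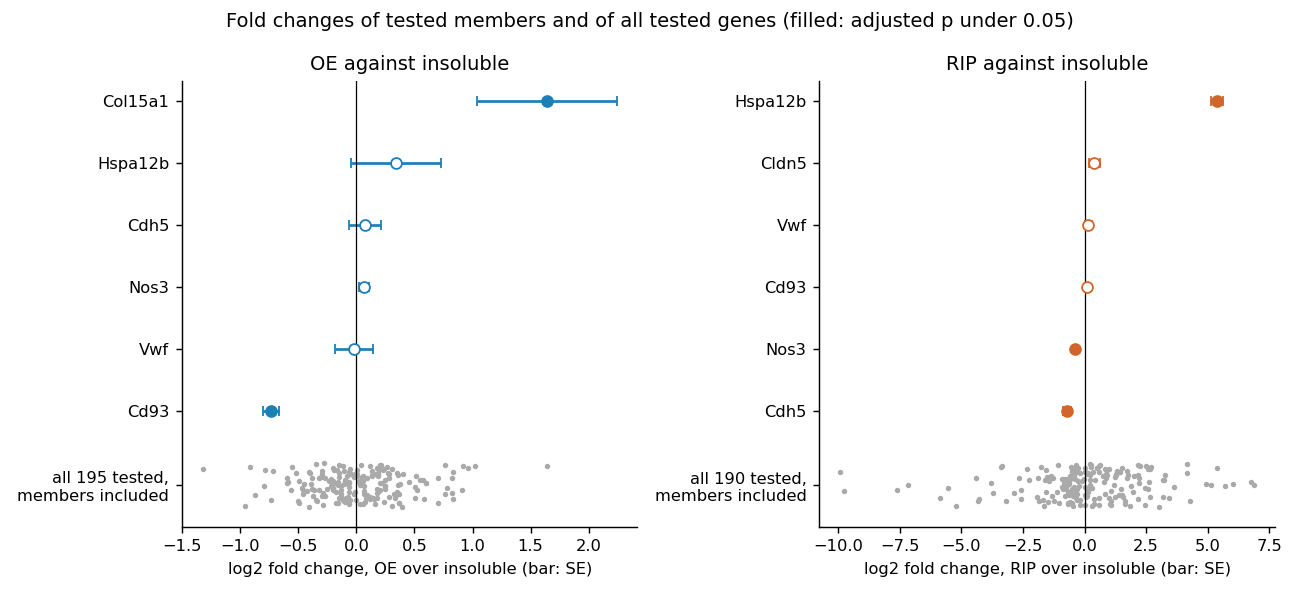
Log2 fold changes (points) with standard errors (bars) of the tested endothelial genes in OE (left) and RIP (right) against the insoluble fraction, with all tested genes as grey points below, scattered vertically for legibility. Filled points passed the adjusted threshold: in OE Col15a1 at 1.64 and Cd93 at -0.74, and in RIP Hspa12b at 5.37, Nos3 at -0.38 and Cdh5 at -0.71.

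The RIP comparison set the RNA recovered with YTHDF2 beside the same 3 insoluble libraries, so both comparisons share their reference libraries. Fold changes deposited beside the RIP counts did not track the counts printed in the same rows (Spearman rho 0.099 across 194 genes, against -0.994 across 225 genes in the OE table, where the deposited ratio is insoluble over OE). Genes are not independent replicates, and these values are descriptive. All 194 genes carried the same insoluble counts in both tables. They also carried the same deposited mean signal, so the mean signal beside the RIP counts was that of the OE table. The RIP counts may belong to other genes than the names of their rows, or the deposited statistics may come from other counts. Which of these holds was not tested. Each RIP value below, Hspa12b included, holds only if counts and names are paired correctly. Directions are those of the counts, and they are relative to the scaling: the median log2 fold change of all 190 tested genes was 0.03 with TMM, -0.32 with upper-quartile scaling and 0.14 with the total of the listed genes.

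Hspa12b had the highest RIP over insoluble value of the 7 listed members, as the rows stand. It had 550, 734 and 654 counts in the RIP libraries, against 10, 17 and 8 in the insoluble fraction. Normalised counts were 567.3 ± 91.2 in RIP and 13.5 ± 5.31 in the insoluble fraction (SD, n = 3 each), a ratio of 41.9 and a log2 fold change of 5.37 ± 0.26 (SE), the 5th highest of the 190 genes tested. In the authors' deposited table its fold change was 6.92 with an unadjusted p-value of 0.383, so the size in the counts was not matched by the deposited value.

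Of the junction genes, Cdh5 had 84, 75 and 69 counts in RIP and 88, 111 and 81 in the insoluble fraction. The raw counts overlapped, and the normalised counts were lower in each RIP library, at 66.6 ± 5.78 against 108.8 ± 17.4 (SD, n = 3 each). The log2 fold change was -0.71 ± 0.16 (SE). Cldn5 had 13, 13 and 11 counts in RIP against 7, 8 and 6, which did not overlap, and it passed the filter through its RIP counts. Its log2 fold change was 0.40 ± 0.23 (SE). That value went from 0.06 with upper-quartile scaling to 0.52 with the total of the listed genes, and Cldn5 was not called under either.

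Nos3 had 1660, 1672 and 1608 counts in RIP and 1740, 1571 and 1525 in the insoluble fraction, overlapping before scaling. After scaling each RIP library was lower, at 1444 ± 41.6 against 1878 ± 59.2 normalised counts (SD, n = 3 each), a log2 fold change of -0.38 ± 0.05 (SE). The value remained negative over the scalings run, from -0.73 with upper-quartile scaling to -0.26 with the total of the listed genes.

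Cd93 and Vwf had no direction that held over the scalings. Cd93 had 966, 852 and 875 counts in RIP against 675, 656 and 548, with a log2 fold change of 0.11 ± 0.06 (SE). Upper-quartile scaling gave -0.24 and the total of the listed genes 0.23, each past the threshold in opposite directions. Vwf had 102, 89 and 99 counts in RIP against 83, 59 and 55, with a log2 fold change of 0.15 ± 0.15 (SE) that became -0.19 with upper-quartile scaling. Col15a1, with 8, 8 and 7 counts in RIP against 6, 3 and 2, did not pass the filter.

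In the RIP comparison 6 of the 7 listed genes passed the filter. Of these, 1 was called higher (Hspa12b), 2 lower (Cdh5 and Nos3) and 3 neither by edgeR's quasi-likelihood test with Benjamini-Hochberg adjustment, where 85.3% of all 190 tested genes were called, 40.5% higher and 44.7% lower. Normalised counts did not overlap in 5 of the 6 genes, 3 of them higher and 2 lower in RIP, beside 87.9% of all tested genes, 43.2% higher and 44.7% lower. The median log2 fold change of the 6 genes was 0.13. As in OE, nothing is read from these counts of genes, since the genes were chosen with these values known. Cldn5, among the 3 higher genes, passed the filter through its RIP counts.

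Scaled together over the genes of both tables, the 9 libraries did not put the groups in 1 order for all of these genes. For Cdh5 the RIP libraries (60.6 to 72.1 normalised counts) were below the insoluble (95.1 to 128.1) and OE libraries (94.4 to 140.2), which overlapped. Nos3 had the same arrangement, with RIP from 1413 to 1490 and the other groups overlapping from 1813 upward. For Cd93 the OE libraries (417.1 to 492.5) were lowest, and the insoluble (694.8 to 757.2) and RIP libraries (759.2 to 829.7) nearly touched. Col15a1 was highest in OE (11.8 to 14.8), while RIP (6.15 to 7.13) and insoluble libraries (2.54 to 6.48) overlapped. Vwf overlapped between each pair of groups.

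**Figure D3:**
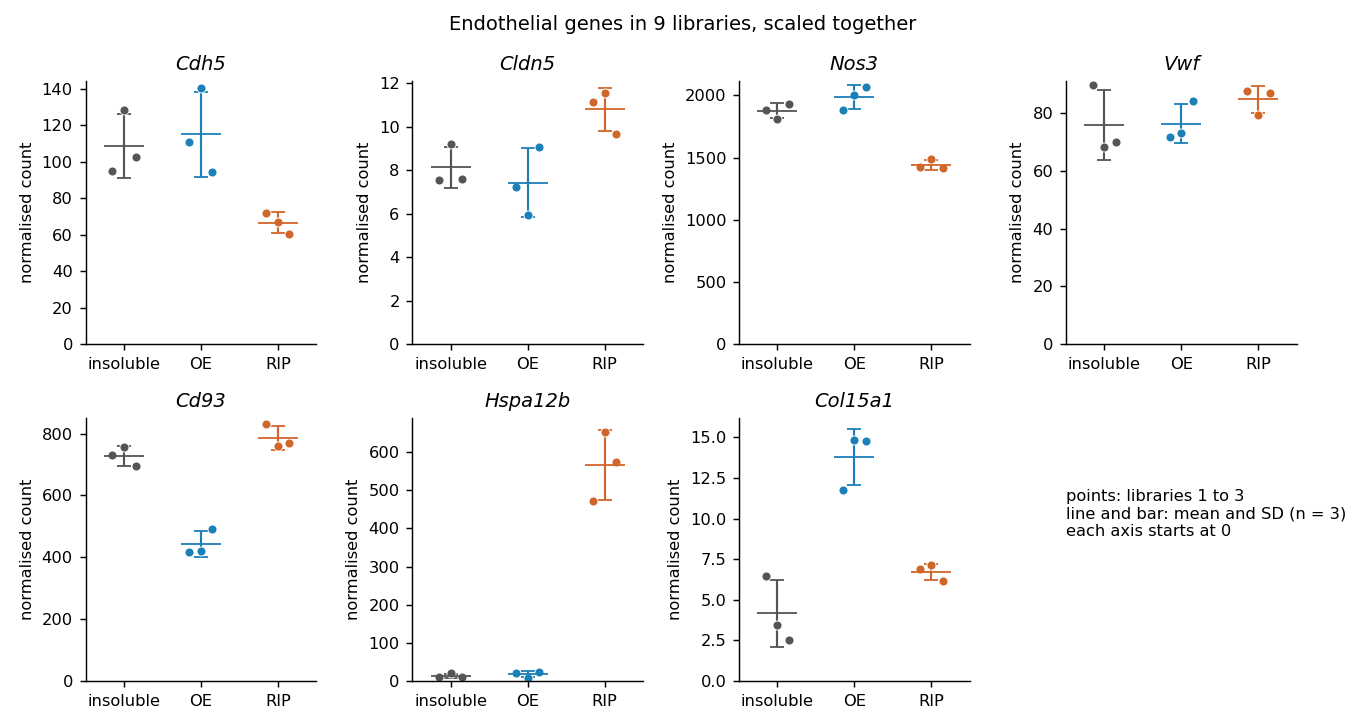
Normalised counts of the 7 genes listed in both tables, in 9 libraries scaled together, with 1 point per library, the mean as a line and the SD as a bar (n = 3 per group), each axis starting at 0. Hspa12b is between 472.4 and 654.0 in RIP and at most 23.9 elsewhere, Cd93 is lowest in OE, and Cdh5 and Nos3 are lowest in RIP.

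The authors' deposited values of the same rows are set beside the counts because they did not run together in RIP. In OE the authors' deposited table gave insoluble over OE folds of 1.70 for Cd93 (unadjusted p-value 3.69e-17) and 0.318 for Col15a1 (0.0221), beside count ratios in that direction of 1.66 and 0.305. For RIP the direction of the authors' deposited folds is not stated. Cdh5 and Nos3 had deposited folds of 0.629 and 0.820, with unadjusted p-values of 0.783 and 1.1e-05 in the authors' deposited table. These folds were close to their RIP over insoluble count ratios of 0.612 and 0.769. With a rho of 0.099 over 194 genes, this closeness is not read as agreement. Cldn5 and Col15a1 had deposited folds of 0.585 and 0.776 in the authors' deposited table, while their counts gave 1.33 and 1.61. Vwf had a deposited fold of 6.94 beside a count ratio of 1.12, and the deposited unadjusted p-value was 1.1e-16 for Cldn5 and 0.399 for Vwf in the authors' deposited table. No single direction of that column therefore fitted the counts of these 7 genes.

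**Figure D4:**
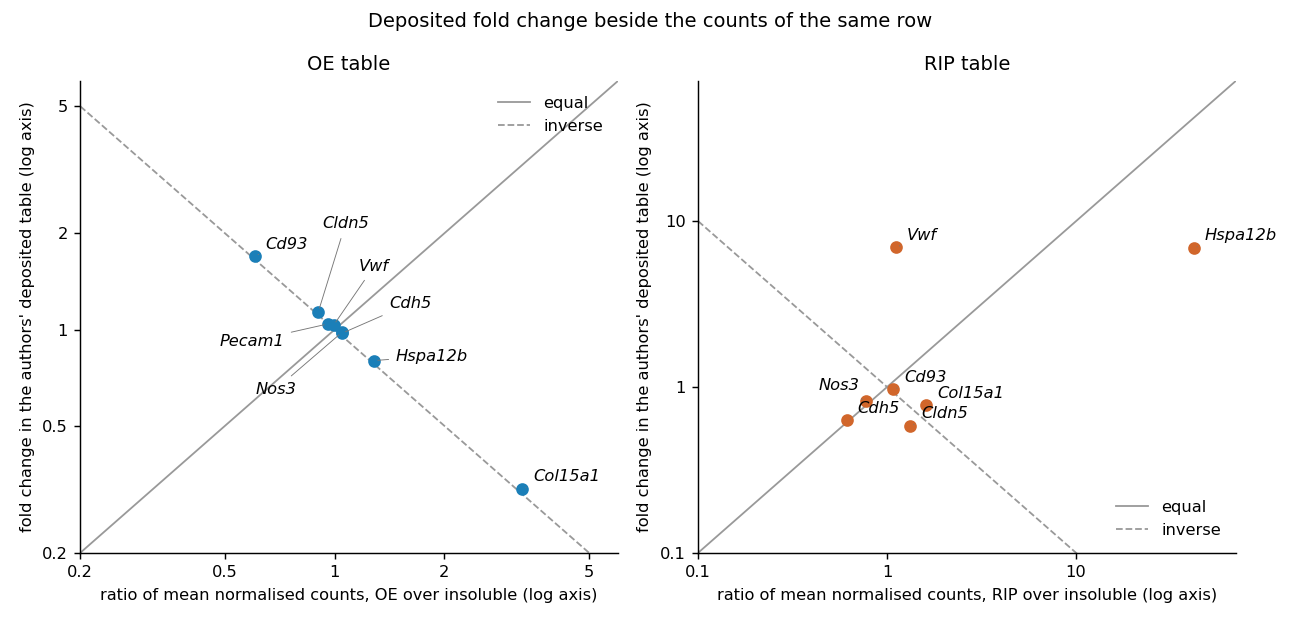
Fold change in the authors' deposited table (vertical, log axis) against the ratio of mean normalised counts over the insoluble fraction (horizontal, log axis), for 8 genes in the OE table and 7 in the RIP table, 1 point per gene. The OE points lie along the inverse line, and in RIP Vwf (6.94 beside 1.12) and Hspa12b (6.92 beside 41.9) lie far from both lines. The Pecam1 point rests on counts of 3 or fewer in each library and is not read.

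The other endothelial and vascular genes came from 4 lists written from textbook knowledge, with 79 genes beside the 9. Of these 79, 23 were in the OE table and 19 were tested there, of which 6 were higher, 2 lower and 11 not called, where 39.5% of all tested genes were called, 21% higher and 18.5% lower. Of the 31 genes in the list of junctions and barrier transport, the 4 analysed here were the members Cdh5, Cldn5, Pecam1 and Slco1a4. In the list of effectors, Ptprb, a phosphatase that acts on VE-cadherin, was lower in OE, as was Cd93. Ptprb had a log2 fold change of -0.45 ± 0.03 (SE) between means of 5006 ± 50.6 and 3662 ± 116.8 normalised counts (SD, n = 3 each). Podxl, a sialomucin of the endothelial surface, had 0.06 ± 0.04 (SE) and was not called.

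Among basement membrane genes, Lama5, a laminin chain, was called higher in OE beside Col15a1, at 0.35 ± 0.13 (SE), and Hspg2 (perlecan) was not called at 0.28 ± 0.12 (SE). Of the 15 tested transcription factors and receptors, 5 were higher (Sox7, Sox17, Erg, Gata2 and Flt1), 1 lower (Notch4) and 9 not called, against the same 39.5% over all tested genes. Gata2 had the largest count of these, from 868.3 ± 44.2 to 1191 ± 67.6 normalised counts (SD, n = 3 each). The median log2 fold change over the 19 genes was 0.06, beside -0.01 over all tested genes.

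In RIP, 18 of the 79 genes were tested, with 6 higher (Sox7, Sox17, Sox18, Erg, Robo4 and Podxl), 8 lower (Kdr, Ets1, Lef1, Flt4, Ptprb, Lama5, Notch4 and Gata2) and 4 not called, where 85.3% of all tested genes were called. Their median log2 fold change was 0.17. Sox7, a transcription factor of endothelium, went from 30.3 ± 5.31 to 535.1 ± 38.2 normalised counts (SD, n = 3 each), a log2 fold change of 4.14 ± 0.14 (SE). Robo4, a receptor of endothelium, went from 48.9 ± 0.493 to 400.7 ± 40.1 normalised counts and Ets1, an ETS transcription factor, from 310.1 ± 14.9 to 108.1 ± 5.69 (SD, n = 3 each). Tie1 was not called, and 1 RIP library stood apart, with 65, 693 and 56 counts.

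Some markers of other cells of the vessel and blood were also listed. Of 12 mural cell markers 4 were in the OE table, summing to 330.8 to 378.9 normalised counts in the insoluble libraries and 391.8 to 442.5 in OE, with Notch3 and Myh11 called higher, Des not called and Acta2 at 0 in the insoluble libraries and at 1, 0 and 1 counts in OE. In RIP 3 of the 12 were listed and summed to 452.6 to 502.1, against 354.0 to 407.0. Of these Myh11 was called higher (log2 fold change 1.73 ± 0.15, SE), Des lower (-0.66 ± 0.12, SE) and Notch3 neither. Of 14 blood and myeloid markers only Ngp and Chil3 were listed, summing to 149.6 to 199.2 in the insoluble libraries and 91.6 to 101.4 in OE, and both were called lower there, as was Cd93, which myeloid cells also express. In RIP they summed to 681.5 to 813.3 against 160.7 to 213.1, and both were called higher. Of all tested genes, 21% were called higher and 18.5% lower in OE, and 40.5% higher and 44.7% lower in RIP. The part of these mural and myeloid markers in the values of the endothelial genes was not tested.

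The genes with the most similar course over the 6 libraries of the OE comparison were found by the root-mean-square difference of centred log2 normalised counts among 150 other genes whose mean was 50 counts or more. For Cd93 these were Gm9752 (difference 0.097) and Tmsb4x (0.108), beside a median of 0.396 over the 150 genes. Both were called lower in OE, with log2 fold changes of -0.60 each. For Cdh5 they were Dock6 (0.142) and Dll4 (0.157), for Nos3 Gm43272 and Podxl (0.043 each), and for Vwf Usmg5 (0.076) and Snhg11 (0.091), none of which was called.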

How the data were processed

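The values deposited were raw counts, named so per the file headers, a linear fold change as a ratio and an unadjusted p-value by the authors, and a mean signal of size-factor-scaled counts. The submitters' processing notes name mm10, Bowtie2 2.2.3, HISAT2 2.1.0 and HTSeq 0.6.0. The OE file had 961 rows, of which the 724 blank ones were left out. Identifiers matched GENCODE M21 (GRCm38) in 236 of 237 genes. Each comparison was fitted on its 6 libraries with edgeR 4.0.16 (R 4.3.3; filterByExpr with a minimum count of 10 and total of 15, TMM, glmQLFit, glmQLFTest, no replicate block) and adjusted by Benjamini-Hochberg over all tested genes. SE came from the fitted model. The procedure was tested on simulated data, in which fewer genes changed than were called in either comparison. That test cannot vouch for the scaling where most genes were called, as in RIP. The alternatives were DESeq2 1.42.0, other scalings, no filter, a replicate block and each library left out. The authors' size factors, solved from the deposited mean signal to within 0.0226%, and total-count scaling were added after seeing the data. Members and lists were chosen with earlier results of these data known. Named genes were the 9 members, listed genes of the vascular lists and, for members with a mean of at least 50 counts, the 2 genes nearest in pattern; Ngp, Chil3 and the mural genes are named as markers. By chi-square, pairs of replicates in the same group differed beyond counting error except insoluble replicates 2 and 3 over the RIP table (ratio 1.15, p = 0.0812); over the larger OE table that pair did differ (1.17, p = 0.0457), and each library was counted as a sample. Counting-error limits take reads as independent molecules, which reads without molecular identifiers are not.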

Additional observations from a re-analysis of the deposited data

How the results depend on the processing

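In the OE comparison 2 of the 6 tested endothelial genes were called, 1 in DESeq2 and 1 to 2 when each library was left out in turn. In RIP 3 of 6 were called, and 3 to 4 in those fits. Of all tested genes, 39.5% of 195 were called in OE and 85.3% of 190 in RIP. Of the 6 fitted genes 3 in OE (Nos3, Cd93, Hspa12b) and 4 in RIP (Cdh5, Cldn5, Nos3, Hspa12b) kept direction and side of the threshold in every alternative that gave a value. These fits reuse the same libraries, and the genes were chosen with these values known, so this stability is description only. Cldn5 passed the filter in 4 of the 6 RIP fits with a library left out. With a library left out, the OE log2 fold change ranged from -0.09 to 0.23 for Cdh5 and from -0.0894 to 0.13 for Vwf. Cdh5 was negative without insoluble replicate 1 (-0.0094) or OE replicate 2 (-0.0882), and Vwf positive without insoluble replicate 1 (0.13), OE replicate 1 (0.0229) or OE replicate 2 (0.005). In RIP upper-quartile scaling gave -0.24 for Cd93 and -0.19 for Vwf, and calls were gained for Vwf without insoluble replicate 1 (0.35) and for Cd93 without RIP replicate 2 (0.15). The cause of these moves was not tested. Over all genes, calls went from 53 to 78 in OE (77 reported) and from 156 to 165 in RIP (162 reported), and with the authors' size factors the OE calls were 36 higher and 40 lower, against 41 and 36. With the replicate block, 73 genes and 2 of the endothelial genes were called in OE and 160 and 3 in RIP. Each gene's group mean was subtracted from its log2 normalised counts, and the deviations were compared between same-numbered libraries of the 2 groups. These deviations correlated at -0.028, 0.0395 and 0.0929 in OE and 0.0912, -0.0772 and -0.207 in RIP, so the numbers were not taken as pairs. Upper-quartile scaling gave 68 higher and 96 lower in RIP, against 77 and 85. The median of GGACT per kilobase was 1.498 with transcripts of median length, and 8 of the 9 such transcripts held the word. The median of GGAC was 3.99 with transcripts of median length, against 5.26 with the longest. Over the 167 listed protein-coding genes it was 5.02 and 4.78, so the order of members and listed genes reversed for GGAC. Low counts limit Cldn5, Pecam1, Slco1a4, Hspa12b and Col15a1 most.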
